A study of Mus musculus with 14 samples.

Results

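Levels of 33 genes of glycolysis and of the hypoxia response were compared across 7 cultures of activated mouse CD4+ T cells. The genes were listed by function, with earlier results of these data known. They were found in the deposited tables by gene symbol, older symbol or RefSeq accession. All 33 were found, of 23768 genes in the tables, as 57 transcripts whose FPKM were summed per gene. FPKM scales the fragments of a transcript to its length and to the size of the library, so levels of different genes can be compared per length. All 33 genes passed the low-value filter, which asks for a medium mean of at least 1 FPKM, as did 11556 genes in all.

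The cells were naive CD4+ T cells of C57BL/6 mice, sorted as CD62L high, CD44 low and CD25-. They were cultured for 3 days on plate-bound antibodies to CD3 and CD28 at 10 µg/ml each, and each medium gave 2 libraries, 14 in all. Th0 medium held no cytokine but antibodies that block IL-2, IL-4 and IFN-γ, at doses the labels do not give. Th1 medium held IL-12 at 20 ng/ml with anti-IL-4 at 10 µg/ml, and Th2 medium held IL-4 at 20 ng/ml with anti-IFN-γ at 10 µg/ml. The iTreg medium held TGF-β at 20 ng/ml, IL-2 at 50 U/ml and anti-IFN-γ. Th17_b medium held TGF-β at 2 ng/ml, IL-6 at 20 ng/ml, anti-IFN-γ, and anti-IL-2 at 10 µg/ml. Th17_23 medium held IL-1β and IL-6 at 20 ng/ml each and IL-23 at 50 ng/ml, with anti-IFN-γ and anti-IL-2. It also held antibodies labelled anti-TGF-β1 and anti-TGF-β2/1.2 at 5 µg/ml each, and no TGF-β. In IL27_plus_TGF_beta medium, TGF-β at 2 ng/ml was joined by 20 ng/ml of IL-27 and by antibodies to the same 3 cytokines as in Th0. Every comparison therefore changes several agents together, and their effects cannot be told apart. The labels give neither the age nor the sex of the mice, and do not say whether the 2 libraries of a medium came from separate mice or cultures. P-values below thus measure the spread between these libraries, which may be technical.

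Glycolysis turns glucose into pyruvate in the cytosol, and activated T cells are known to raise it and to pass much of the pyruvate on to lactate. HIF-1α is the oxygen-regulated subunit of a transcription factor that acts on many glycolytic genes. Prolyl hydroxylases mark it for degradation when oxygen is present, so its protein need not follow its RNA. In CD4+ T cells HIF-1α and glycolysis are known to favour Th17 over regulatory T cell differentiation.

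The 7 CD4 T cell markers examined were above 1 FPKM in all 14 libraries, with sums of 1182 to 1790 FPKM. Markers of B, myeloid, dendritic, natural killer and erythroid cells summed to at most 2.66 FPKM per list and library. The myeloid list, for which Lyz2 was at 0 in every library, summed to 1.05 to 2.66 FPKM in iTreg and Th2 libraries and to at most 0.62 FPKM in the others; their part in the results was not tested. The CD8 list summed to 2.71 to 7.78 FPKM, nearly all of it Cd8b1. FPKM carry no read totals. From the steps between low values, replicate 1 libraries had 0.935 to 1.06 times the depth of Th0 replicate 1, and replicate 2 libraries 0.748 to 0.832 times. In bulk RNA, fewer cells that express a gene and less RNA per cell cannot be told apart.

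The promoters of 5 of the genes are shown, with marks on the core letters that HIF-1 is known to bind. These genes were picked with their levels known, and each had its lowest mean in iTreg and its highest in Th17_23. Each window, from RefSeq on GRCm38.p6, runs from 250 bases before to 50 bases after the gene's start, 5′ to 3′ on the gene's strand. Capitals mark ACGTG or GCGTG on either strand, and overlapping matches, as in the palindrome CACGTG, count separately.
Slc2a1, chr4:119108495-119108794, plus strand: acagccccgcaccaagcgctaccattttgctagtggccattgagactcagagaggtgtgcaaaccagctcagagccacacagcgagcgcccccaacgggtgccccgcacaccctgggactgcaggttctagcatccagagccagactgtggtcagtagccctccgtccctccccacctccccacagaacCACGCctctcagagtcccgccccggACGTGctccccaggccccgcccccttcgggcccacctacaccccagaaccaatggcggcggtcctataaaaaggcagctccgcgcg
Hk2, chr6:82774405-82774704, minus strand: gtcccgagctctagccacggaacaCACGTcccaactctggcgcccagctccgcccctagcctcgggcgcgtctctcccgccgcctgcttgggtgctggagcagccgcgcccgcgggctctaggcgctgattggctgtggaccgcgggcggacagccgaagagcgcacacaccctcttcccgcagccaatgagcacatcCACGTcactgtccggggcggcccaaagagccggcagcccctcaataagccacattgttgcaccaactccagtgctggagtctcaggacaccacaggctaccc
Ldha, chr7:46845554-46845853, plus strand: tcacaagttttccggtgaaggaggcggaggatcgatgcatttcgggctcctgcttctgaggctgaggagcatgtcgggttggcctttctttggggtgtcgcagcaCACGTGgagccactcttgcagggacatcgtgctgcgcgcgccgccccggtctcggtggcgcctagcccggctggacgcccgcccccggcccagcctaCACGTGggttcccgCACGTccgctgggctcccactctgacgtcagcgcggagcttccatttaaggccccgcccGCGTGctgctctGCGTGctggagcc
Bnip3, chr7:138909457-138909756, minus strand: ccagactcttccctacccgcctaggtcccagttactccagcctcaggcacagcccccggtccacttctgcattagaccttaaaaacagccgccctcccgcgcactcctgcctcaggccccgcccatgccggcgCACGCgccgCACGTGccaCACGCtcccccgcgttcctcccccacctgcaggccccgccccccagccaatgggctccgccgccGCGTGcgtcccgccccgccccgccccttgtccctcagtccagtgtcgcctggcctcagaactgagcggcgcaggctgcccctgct
Tpi1, chr6:124814109-124814408, minus strand: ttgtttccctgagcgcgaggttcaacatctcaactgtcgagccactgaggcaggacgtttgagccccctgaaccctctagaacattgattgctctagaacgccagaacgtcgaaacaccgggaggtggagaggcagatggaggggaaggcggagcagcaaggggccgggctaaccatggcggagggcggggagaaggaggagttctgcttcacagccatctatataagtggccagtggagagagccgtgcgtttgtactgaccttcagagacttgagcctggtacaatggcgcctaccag
Ldha held 7 matches and Bnip3 5, Slc2a1 and Hk2 held 2 each, and Tpi1 held 0. Where a gene had several starts, the window with the most matches is shown. The other Ldha window held 2, as many as Slc2a1 and Hk2. At least 1 match stood in 37 of the 47 windows of 31 of the 33 genes (78.7%), in 62.7% of 11647 windows of tested genes and in 43.8% of all 32851 windows. The genes' windows were richer in G and C, with a median of 62.3%, than all windows, with 52.7%; those of tested genes had 60.7%. A match describes these letters and is not a measured binding site. A window without a match does not show that such letters are absent elsewhere near the gene. A link between matches and RNA levels was not tested. Slc2a3 and Bnip3l are named only.

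The 33 genes differed widely between the media, with the lowest levels in iTreg and the highest in Th17_23. Together they took 0.618 and 0.804% of the summed FPKM in the iTreg libraries and 2.40 and 2.27% in the Th17_23 libraries. Th17_b libraries gave 1.70 and 1.76%, IL27_plus_TGF_beta 1.64 and 1.76%, Th1 1.36 and 1.18%, Th0 1.26 and 1.18%, and Th2 1.03 and 1.16%. The iTreg libraries lay below all others and the Th17_23 libraries above all others, with Th17_b and IL27_plus_TGF_beta between Th17_23 and the rest. Genes with the highest FPKM weigh most in this share, such as Gapdh, Ldha and Pkm, with Th17_23 means of 2474, 1712 and 1527 FPKM. Their levels are uncertain because of near-identical copies, as given below. Hif1a, at a mean of 163 FPKM in Th17_23, weighs little in it. By medium means, Th17_23 was highest for 21 of the 33 genes and iTreg lowest for 25. Over all tested genes, Th17_23 was highest for 26.2% and iTreg lowest for 33.8%. The 7 media differed for 32 of the 33 genes in limma's F test (Benjamini-Hochberg adjusted p below 0.05 across the 11556 genes), against 93% of all genes tested. The exception was P4ha1, a subunit of the collagen prolyl 4-hydroxylase, at 14.2 to 18.7 FPKM by medium mean (adjusted p = 0.163).

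**Figure D1:**
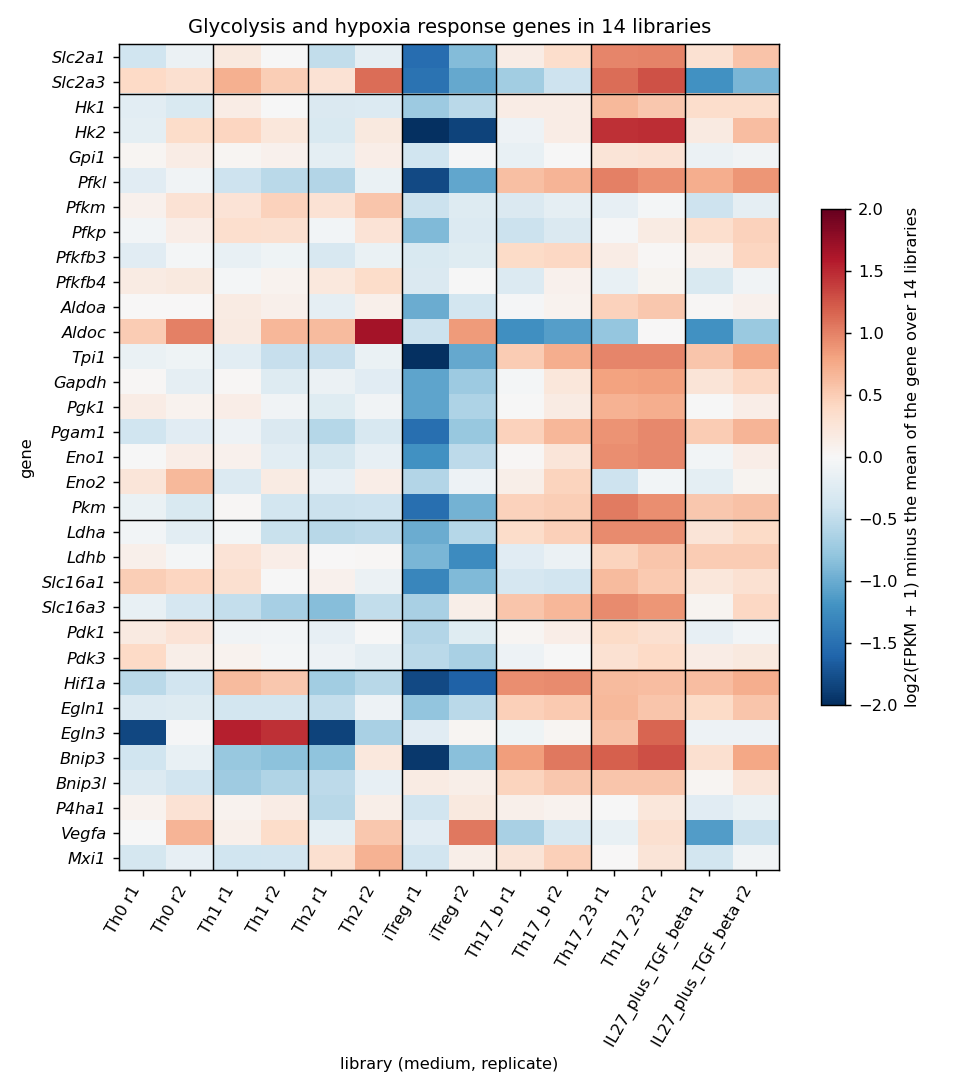
Each cell is log2(FPKM + 1) of a gene (rows, in pathway order) in 1 library (columns, 2 per medium) minus the gene's mean over the 14 libraries. The iTreg columns are mostly blue, below the mean, and the Th17_23 columns mostly red. Rows such as Aldoc, Vegfa, Egln3, Mxi1, Pfkfb4 and P4ha1 do not follow this order. Pfkm and Eno2 are lowest in iTreg but not high in Th17_23.

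Glucose enters T cells mainly through Slc2a1 (GLUT1) and the high-affinity Slc2a3 (GLUT3). Slc2a1 read 71.8 and 72.9 FPKM in Th17_23, 44.8 and 54.1 in IL27_plus_TGF_beta, 40.2 and 46.4 in Th17_b, 41.4 and 35.8 in Th1, 27.1 and 33.2 in Th0, 25.2 and 31.6 in Th2, and 11.9 and 19.3 in iTreg. The Th17_23 pair lay above every other library and the iTreg pair below every other library. IL27_plus_TGF_beta and Th17_b, neighbours in the order, did not differ beyond their spread (adjusted p = 0.4, limma), nor did Th0 and Th2 (adjusted p = 0.77). Slc2a3 read 40.4 and 45.0 FPKM in Th17_23, 22.3 and 40.3 in Th2, 30.2 and 25.9 in Th1, 24.2 and 22.7 in Th0, 10.8 and 13.2 in Th17_b, 7.25 and 9.08 in IL27_plus_TGF_beta, and 5.86 and 8.39 in iTreg. Here the media with TGF-β lay below all others without overlap. The ratio of Slc2a3 to Slc2a1 was accordingly 0.165 ± 0.00440 in IL27_plus_TGF_beta and 0.277 ± 0.0117 in Th17_b (SD, n = 2), against 1.08 ± 0.276 in Th2. IL27_plus_TGF_beta thus raised Slc2a1 over Th0, by a log2 change of 0.70 ± 0.16 (SE, adjusted p = 0.0053), while Slc2a3 fell by 1.42 ± 0.20 (adjusted p = 0.00031).

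Hexokinases trap glucose in the cell as glucose 6-phosphate. Hk2, the inducible isozyme, read 32.9 and 33.1 FPKM in Th17_23, 12.9 and 17.8 in IL27_plus_TGF_beta, 15.5 and 13.3 in Th1, 9.66 and 14.8 in Th0, 10.4 and 12.6 in Th17_b, 8.96 and 13.0 in Th2, and 0.984 and 2.38 in iTreg. The Th17_23 mean was 19.6 times the iTreg mean, the widest span of the 33 genes, and the 5 media between them lay within 8.96 to 17.8 FPKM, where Th17_b lay below Th1 and IL27_plus_TGF_beta, Th2 lay below Th1, and the other pairs overlapped. Hk1, the constitutive isozyme, spanned 35.2 to 92.6 FPKM in a similar order, so that the ratio of Hk2 to Hk1 ran from 0.0435 ± 0.0220 in iTreg to 0.370 ± 0.0204 in Th17_23 (SD, n = 2). The next step is done by Gpi1, glucose 6-phosphate isomerase, which stayed within 156 to 251 FPKM in all libraries.

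Phosphofructokinase commits the sugar to glycolysis, and its isozymes followed different orders. Pfkl, the liver-type isozyme, read 79.1 and 73.9 FPKM in Th17_23, 65.2 and 72.1 in IL27_plus_TGF_beta, 59.5 and 62.8 in Th17_b, 33.1 and 36.9 in Th0, 25.6 and 35.2 in Th2, 29.0 and 26.4 in Th1, and 10.4 and 18.4 in iTreg. The media formed 3 groups without overlap, with Th17_23, IL27_plus_TGF_beta and Th17_b on top and iTreg below. Pfkp, the platelet type, was highest in IL27_plus_TGF_beta (104.4 and 113.8 FPKM), close to Th1 (103.9 and 102.5), and lower in Th17_b (60.5 and 67.0). The ratio of Pfkl to Pfkp was 0.961 ± 0.0320 in Th17_b and 0.253 ± 0.0251 in iTreg (SD, n = 2). Pfkm, the muscle type, had its highest mean in Th2 (15.2 and 18.3 FPKM), which overlapped with Th1 (14.9 and 17.1). Its lowest mean was in iTreg (8.80 and 10.0), which overlapped with IL27_plus_TGF_beta (8.91 and 10.7) and Th17_b (9.84 and 10.6). Pfkfb3 and Pfkfb4 make and degrade fructose 2,6-bisphosphate, the activator of phosphofructokinase, and had ranges of 11.8 to 20.7 and 2.88 to 5.17 FPKM.

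Aldolases split the 6-carbon sugar. Aldoa, the main form here, ranged from 350.3 FPKM in iTreg replicate 1 to 1010.1 in Th17_23 replicate 2. Aldoc, the brain-type form, went another way, with 27.8 and 57.8 FPKM in Th2, 25.3 and 36.2 in Th0, 20.1 and 28.5 in Th1, 12.9 and 32.4 in iTreg, 9.87 and 17.7 in Th17_23, 7.06 and 10.1 in IL27_plus_TGF_beta, and 6.91 and 7.68 in Th17_b. Replicate 2 read higher than replicate 1 in every medium, and Th17_b lay below every library outside IL27_plus_TGF_beta.

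The triose steps carry some of the highest RNA levels of the pathway. Tpi1, which interconverts the 2 triose phosphates, read 706 and 702 FPKM in Th17_23, 523 and 613 in IL27_plus_TGF_beta, 506 and 589.8 in Th17_b, 324 and 335 in Th0, 259.7 and 327 in Th2, 309 and 259.8 in Th1, and 86.9 and 176 in iTreg. Its groups repeat those of Pfkl. Gapdh, often used as a reference gene, ran from 676 FPKM in iTreg replicate 1 to 2485 in Th17_23 replicate 2, a 3.24-fold span of medium means. Pgk1, which makes ATP at the next step, Pgam1, a mutase, and Eno1, the main enolase, had spans of 2.89, 4.11 and 3.44 times, each with iTreg lowest and Th17_23 highest. Eno1 includes a transcript of the near-identical copy Eno1b. Eno2, the neuronal enolase, stayed at 3.44 to 9.41 FPKM and was highest in Th0.

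Pkm, pyruvate kinase, read 1588 and 1467 FPKM in Th17_23, 1127 and 1158 in IL27_plus_TGF_beta, 1059.5 and 1087 in Th17_b, 784 and 597 in Th1, 705 and 626 in Th0, 575 and 581 in Th2, and 271 and 401 in iTreg. The 3 upper media did not overlap with Th0, Th1 or Th2, and iTreg lay below all. Of its 2 transcripts, that listed under the older gene symbol PKM2 held 93.1 to 94.7% of the Pkm FPKM by medium mean; the symbol alone does not name a splice form. The sources used here do not say how reads shared between genes were treated. Levels of Gapdh, Ldha, Eno1, Pgk1, Tpi1, Pgam1, Aldoa and Pkm, which are known for processed pseudogenes or near-identical copies, are uncertain to that extent.

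Ldha, which turns pyruvate into lactate, read 1714 and 1709 FPKM in Th17_23, 1143 and 1239.9 in Th17_b, 1055 and 1152 in IL27_plus_TGF_beta, 853 and 766 in Th0, 864 and 651 in Th1, 603 and 618 in Th2, and 445 and 596 in iTreg. The upper 3 media stood apart from the rest, whereas Th2 and iTreg did not differ beyond their spread (adjusted p = 0.19, limma). Ldhb, the subunit that favours the reverse reaction, was far lower, at 11.1 to 41.3 FPKM. It was highest in IL27_plus_TGF_beta (40.3 and 40.0) and Th17_23 (38.4 and 41.3) and lowest in iTreg (14.4 and 11.1). Lactate leaves cells through monocarboxylate transporters, of which Slc16a3 (MCT4) was highest in Th17_23 (94.6 and 90.4 FPKM) and Th17_b (71.3 and 77.1). Slc16a1 (MCT1) was also highest in Th17_23 (40.2 and 37.3 FPKM) but low in Th17_b (20.0 and 19.4) and iTreg (9.74 and 13.5). The ratio of Slc16a3 to Slc16a1 was therefore 3.77 ± 0.282 in Th17_b, 3.51 ± 0.529 in iTreg and 1.15 ± 0.0801 in Th0 (SD, n = 2).

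Pyruvate dehydrogenase kinases Pdk1 and Pdk3 inhibit the entry of pyruvate into the citrate cycle. Both had narrow ranges, from 15.9 to 31.8 FPKM for Pdk1 and from 17.5 to 37.4 for Pdk3, lowest in iTreg. Their Th17_23 and Th0 levels did not differ beyond the spread (adjusted p = 0.25 and 0.42, limma).

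Hif1a, which encodes HIF-1α, had its highest mean in Th17_b rather than in Th17_23. Pfkfb3 had the same order of medium means as Hif1a. In Slc2a1, Hk1, Pgam1 and Pkm the lower places were also Th1, Th0, Th2 and iTreg, and only the upper media changed places. Hif1a read 201 and 203 FPKM in Th17_b, 161 and 174 in IL27_plus_TGF_beta, 163 and 162 in Th17_23, 163 and 153 in Th1, 71.8 and 80.1 in Th0, 64.6 and 71.1 in Th2, and 29.5 and 33.8 in iTreg. Th17_b lay above every other library, the other 3 high media overlapped, and iTreg lay below every other library. The difference between Th1 and Th17_23 was not called (adjusted p = 0.68, limma), while in Th1 the 33 genes took a share of FPKM near that of Th0. That share is weighted to the genes with the highest FPKM. Whether HIF-1α acted on these genes was not tested. Egln1, the main prolyl hydroxylase for HIF-1α, read 33.7 to 40.8 FPKM in Th17_23, Th17_b and IL27_plus_TGF_beta and 14.4 to 24.0 in the others, without overlap. Egln3, a hypoxia-inducible prolyl hydroxylase, read 87.3 and 82.1 FPKM in Th1, 44.5 and 66.8 in Th17_23, 27.5 and 30.1 in Th17_b, 24.9 and 29.9 in iTreg, 27.0 and 27.1 in IL27_plus_TGF_beta, 7.58 and 28.6 in Th0, and 7.33 and 18.3 in Th2. Th1 stood above all other libraries, and the Th0 libraries stood far apart from each other.

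**Figure D2:**
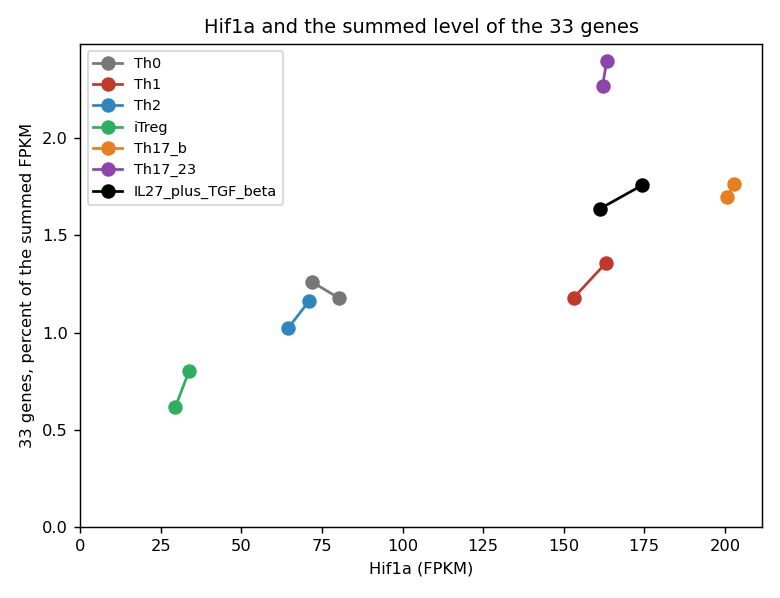
Points are the 14 libraries, with the 2 of a medium joined by a line: Hif1a level in FPKM against the percent of the summed FPKM taken by the 33 genes, Hif1a included. Genes with the highest FPKM weigh most in this percent. Th17_b has the highest Hif1a at 201 and 203 FPKM but not the highest share, which is that of Th17_23 at 2.27 and 2.40%, and the Th1 libraries lie close to Th17_23 in Hif1a at a share of 1.18 and 1.36%.

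Among genes known as HIF targets, Bnip3, a mitochondrial protein of mitophagy and cell death, read 59.7 and 63.6 FPKM in Th17_23, 46.5 and 54.2 in Th17_b, 32.2 and 44.2 in IL27_plus_TGF_beta, 14.2 and 29.8 in Th2, 19.1 and 22.97 in Th0, 14.7 and 14.1 in Th1, and 5.93 and 13.8 in iTreg. The upper 3 media lay above all other libraries. Its relative Bnip3l read 40.6 and 39.4 FPKM in iTreg against 29.8 and 27.7 in Th0, and was highest in Th17_23 at 53.6 in both libraries. Vegfa, the angiogenic growth factor, was low, at 2.59 to 15.2 FPKM, and its iTreg libraries read 5.64 and 15.2. Mxi1, an antagonist of Myc, was highest in Th2 (7.56 and 10.1 FPKM) and Th17_b (7.23 and 8.54).

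**Figure D3:**
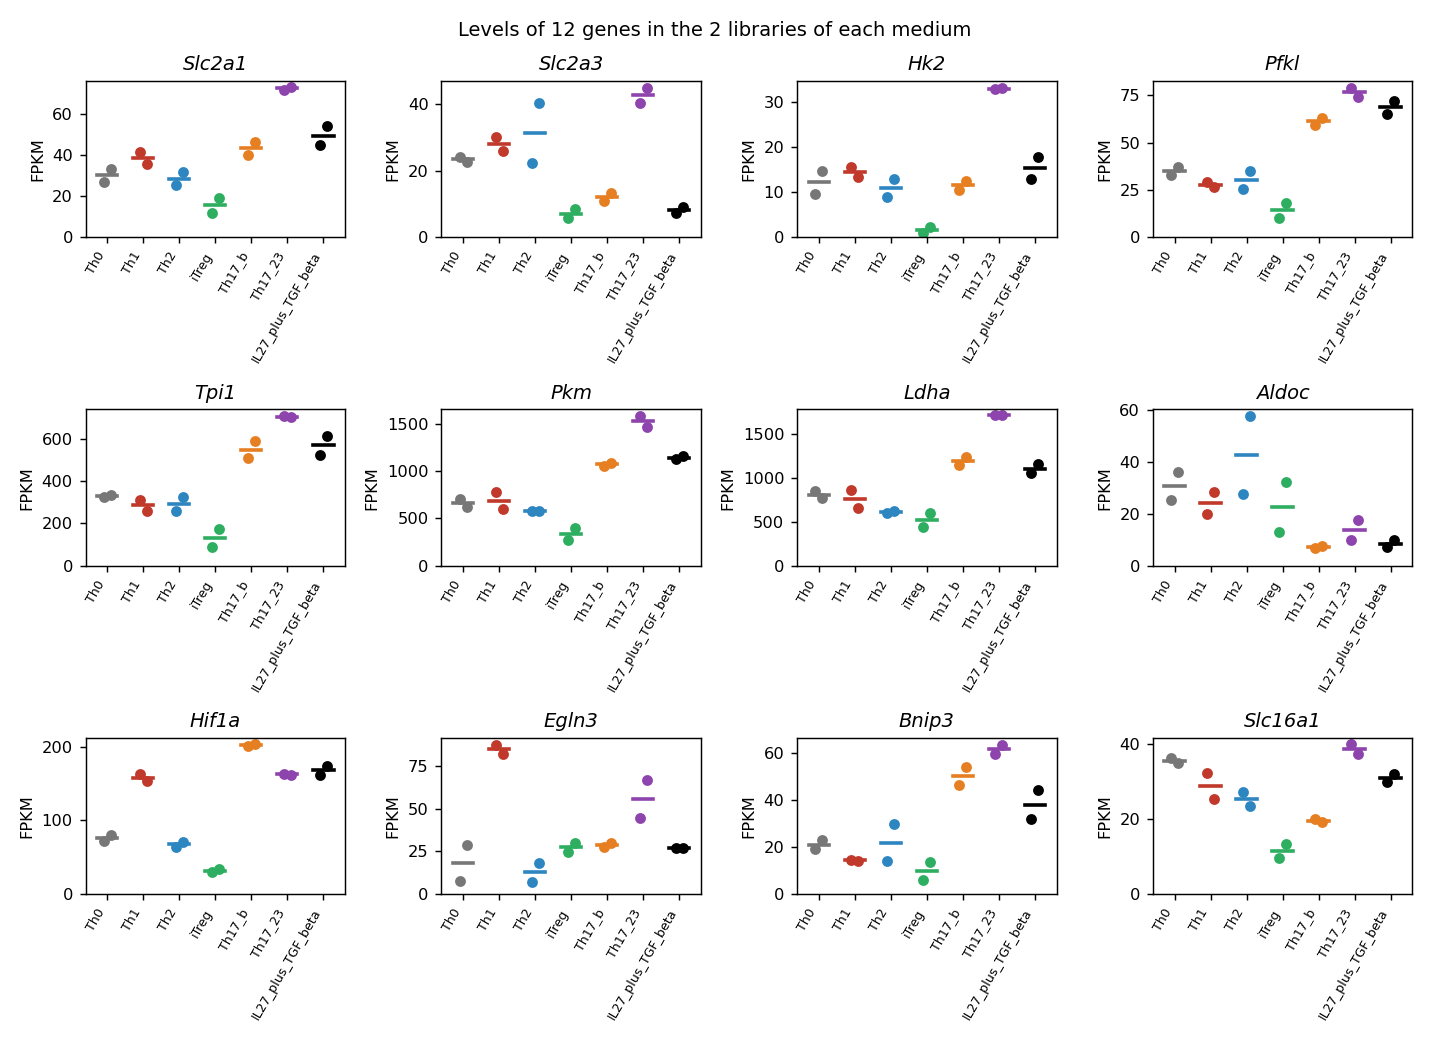
FPKM of 12 genes by medium, with points for the 2 libraries and a bar for their mean, each axis starting at 0. Hk2, Pfkl, Tpi1, Pkm and Ldha are lowest in iTreg and highest in Th17_23, Slc2a3 is low in iTreg, Th17_b and IL27_plus_TGF_beta, Aldoc is low in Th17_b, Th17_23 and IL27_plus_TGF_beta, and Egln3 is highest in Th1.

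In iTreg nearly the whole pathway was lower than in Th0. Of the 33 genes 25 fell and 1 rose in iTreg against Th0, where 40.7% of all genes tested were called lower and 22.7% higher (63.5% in all). The median log2 change of log2(FPKM + 1), a scale that understates the change of low genes, was -0.69 for the 33 genes and -0.13 for all genes tested. Hk2 fell by 2.32 ± 0.20 (SE, adjusted p = 1.5e-05, limma), Hif1a by 1.24 ± 0.08 (adjusted p = 2.4e-06) and Slc16a1 by 1.55 ± 0.15 (adjusted p = 2.7e-05). Falls of Slc2a3 (1.61 ± 0.20), Tpi1 (1.41 ± 0.23), Pfkl (1.28 ± 0.19) and Ldhb (1.12 ± 0.11) were also called. The gene that rose was Bnip3l, by 0.46 ± 0.10 (adjusted p = 0.0032). Slc16a3 changed by -0.02 ± 0.20 (adjusted p = 0.93), with table values of -0.50 and 0.45. The replicate 2 iTreg library read higher than replicate 1 for most glycolytic genes, so the fall of Tpi1 was 1.88 in the first table and 0.93 in the second on the log2 scale. Of the 26 calls, 21 held in every alternative tried; the exceptions were Ldha and Bnip3, lost without iTreg replicate 1 (log2 changes of -0.42 and -0.73), and Gpi1, Egln1 and Pfkfb4. Egln1 was lost without iTreg replicate 1 (-0.31) or Th0 replicate 1 (-0.34), and under quantile (-0.26) and median scaling (-0.27). Pfkfb4 was lost without the same libraries (-0.27 and -0.23), without the table term and in the fit of the 2 compared media alone (-0.33 in both). Gpi1, at -0.30, was lost in both of those fits, under quantile (-0.09) and median scaling (-0.18), and without iTreg replicate 1 (-0.18) or either Th0 library (-0.27 and -0.33). Scaling the libraries to 1 median or to the same quantiles moved the median of all genes by 0.12 and 0.11 and the higher share of all calls from 35.8% to 47.5% and 46.7%, while the number of the 33 genes called was 24 to 26 in those and the other alternatives with all libraries, with 2 higher and 23 lower under median scaling.

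Th17_b raised part of the pathway over Th0. In Th17_b against Th0 14 of the 33 genes rose and 8 fell, against 25.4% and 29.1% of all genes tested (54.5% called in all), and the median change was 0.07, with -0.03 for all genes. Hif1a rose by 1.40 ± 0.08 (adjusted p = 7.9e-07), Bnip3 by 1.22 ± 0.26 (adjusted p = 0.0033), Pgam1 by 0.87 ± 0.17 (adjusted p = 0.0018) and Pfkl by 0.79 ± 0.19 (adjusted p = 0.0056). The rises of Egln1 (0.77 ± 0.11), Bnip3l (0.82 ± 0.10) and Mxi1 (0.62 ± 0.10) were also called. Aldoc fell by 1.92 ± 0.22 (adjusted p = 8.7e-05), Slc2a3 by 0.91 ± 0.20, Slc16a1 by 0.82 ± 0.15 and Pfkm by 0.42 ± 0.06. At the middle of the pathway no call was made for Aldoa (0.03 ± 0.14), Gapdh (0.17 ± 0.14), Pgk1 (-0.03 ± 0.13) or Eno1 (0.07 ± 0.17), nor for Hk2 (-0.06 ± 0.20). Of the 22 calls, 12 held in every alternative. The rises of Pkm and Slc16a3 were lost without Th0 replicate 2 (0.59 and 0.64), that of Ldha without Th17_b replicate 2 (0.50) or Th0 replicate 2 (0.46), and those of Slc2a1 (0.47 to 0.55) and Tpi1 (0.63 to 0.83) whichever of the 4 libraries was left out. Pfkfb3 was called at 0.53 ± 0.10, but its most abundant transcript alone changed by -0.09.

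Th17_23 raised the pathway most broadly. In Th17_23 against Th0 21 of the 33 genes rose and 3 fell, against 26.4% and 22.9% of all genes tested (49.3% called in all), with a median change of 0.84 against 0.03 for all genes. Every glycolytic step from uptake to lactate export had at least 1 gene called higher except the isomerase step, where Gpi1 changed by 0.18 ± 0.10 (adjusted p = 0.14). The rises included Bnip3 (1.51 ± 0.26, adjusted p = 0.0013), Hk2 (1.39 ± 0.20, adjusted p = 0.00045), Pgam1 (1.25 ± 0.17, adjusted p = 0.00031), Slc2a1 (1.24 ± 0.16, adjusted p = 0.00025) and Pkm (1.20 ± 0.17, adjusted p = 0.00049). Slc16a3 rose by 1.16 ± 0.20, Hif1a by 1.09 ± 0.08, Ldha by 1.08 ± 0.15 and Hk1 by 0.86 ± 0.08. The 3 that fell were the minor isozymes Aldoc (by 1.14 ± 0.22), Eno2 (by 0.69 ± 0.07) and Pfkm (by 0.29 ± 0.06); the calls of Aldoc and Pfkm were lost in the fit without the table term. Of the 24 calls, 18 held in every alternative. The rise of Aldoa, 0.49 ± 0.14, was lost without Th17_23 replicate 1 (0.45), Th17_23 replicate 2 (0.54) or Th0 replicate 2 (0.41), and that of Slc2a3 without Th17_23 replicate 1 (0.79) or Th0 replicate 2 (0.65).

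IL27_plus_TGF_beta raised Slc2a1, Hk1 and part of the lower pathway. In IL27_plus_TGF_beta against Th0 15 of the 33 genes rose and 7 fell, against 22% and 28.9% of all genes tested (50.9% called in all), with a median of 0.36 against -0.04. Hif1a rose by 1.13 ± 0.08 (adjusted p = 2.8e-06), Pfkl by 0.95 ± 0.19 (adjusted p = 0.0022), Pgam1 by 0.91 ± 0.17 (adjusted p = 0.0015), Pkm by 0.78 ± 0.17 (adjusted p = 0.0046) and Hk1 by 0.62 ± 0.08 (adjusted p = 0.0002). Ldhb rose too, by 0.47 ± 0.11 (adjusted p = 0.0045). Aldoc fell by 1.73 ± 0.22, Slc2a3 by 1.42 ± 0.20 and Pfkm by 0.49 ± 0.06, and Vegfa fell by 1.11 ± 0.20, a call lost in the fit without the table term. Of the 22 calls, 12 held in every alternative. Those of Ldha and Gapdh were lost without either IL27_plus_TGF_beta library or without Th0 replicate 2 (0.35 for Ldha, 0.27 for Gapdh), and Ldha also without Th0 replicate 1 (0.55). Those of Bnip3 (0.71 to 0.93) and Pfkp (0.30 to 0.42) were lost whichever of the 4 libraries was left out, and that of Tpi1 without either IL27_plus_TGF_beta library (0.78 each) or without Th0 replicate 2 (0.68).

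**Figure D4:**
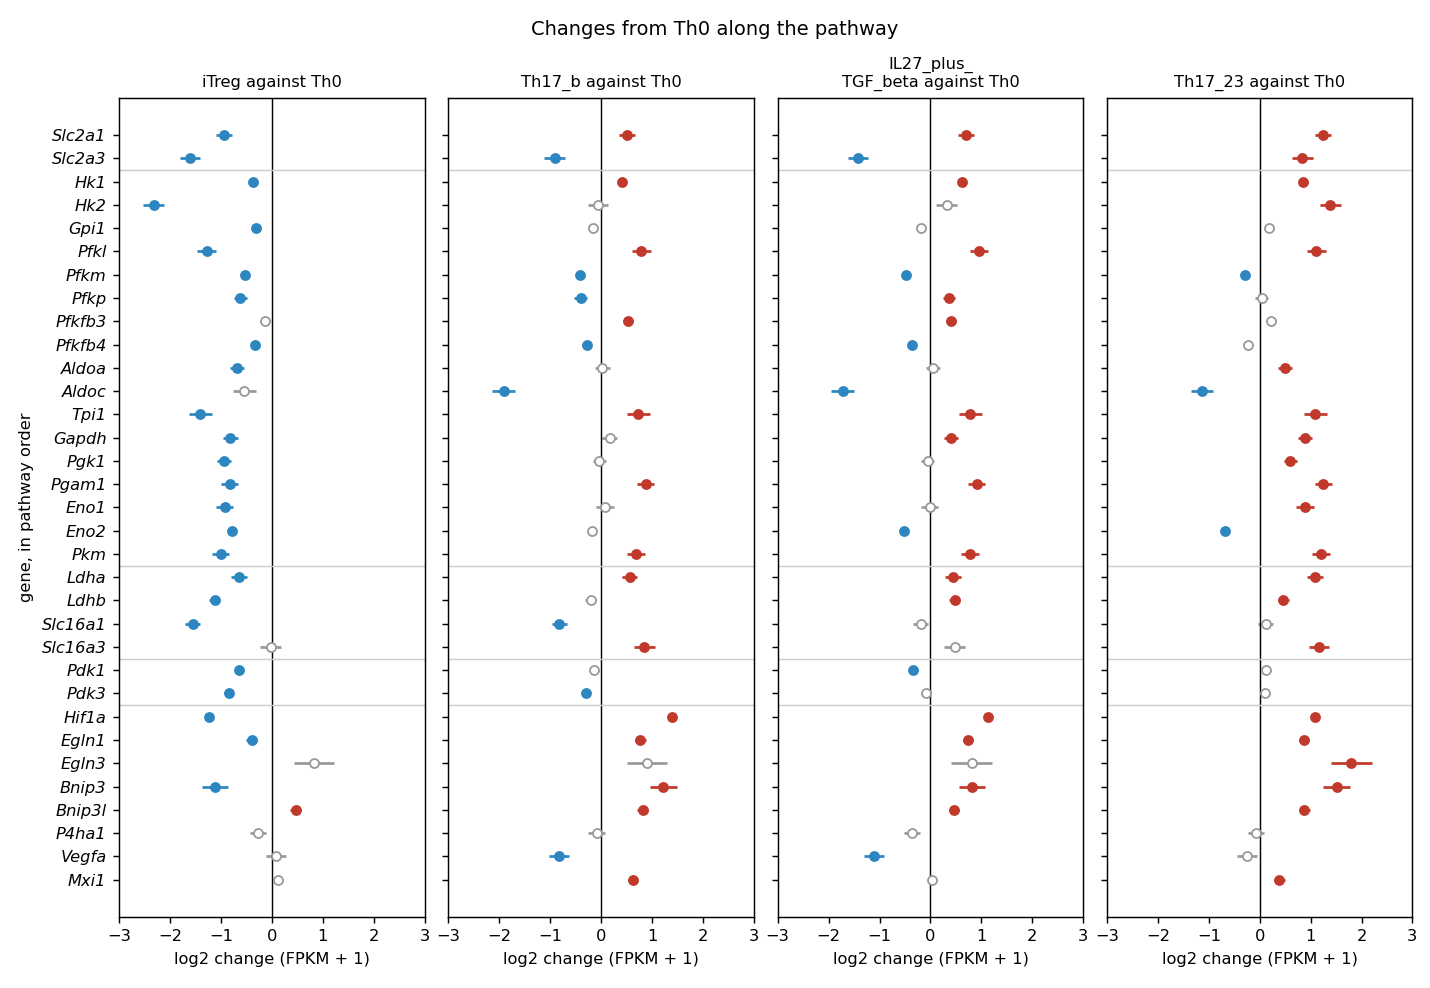
Log2 change of log2(FPKM + 1) from Th0 for the 33 genes in pathway order, with standard errors, in 4 media. Red points were called higher, blue lower and open grey ones not called: iTreg has 25 blue points, Th17_23 21 red ones, and Th17_b and IL27_plus_TGF_beta have both, with Slc2a3 and Aldoc among the blue. The 4 panels share the Th0 libraries.

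In Th1 and Th2 the share of the 33 genes called, 12.1% and 15.2%, was near that of all genes tested, 13.9% and 18%. In Th1 against Th0 3 of the 33 genes rose and 1 fell, against 6.36% and 7.55% of all genes tested. Hif1a rose by 1.05 ± 0.08 (adjusted p = 5.6e-05) and Egln3 by 2.42 ± 0.40 (adjusted p = 0.0052), with Hk1 at 0.34 ± 0.08 (adjusted p = 0.027). Eno2 fell by 0.50 ± 0.07 (adjusted p = 0.0022). The Egln3 rise was 3.36 in the first table and 1.49 in the second, and its call was lost without Th1 replicate 1 (2.05, adjusted p = 0.056) and in the fit of the 2 compared media alone. That of Hk1 was lost without Th1 replicate 1 (0.26), Th0 replicate 1 (0.38) or Th0 replicate 2 (0.30), and only the Hif1a call held in every alternative. In Th2 against Th0 2 rose and 3 fell, against 5.69% and 12.4%. Mxi1 rose by 0.76 ± 0.10 (adjusted p = 0.00093), the one call that held in every alternative. Pfkm (0.23 ± 0.06), Eno2 (-0.47 ± 0.07), Pdk1 (-0.31 ± 0.09) and Pdk3 (-0.39 ± 0.09) lost their calls in at least 1. For Pdk1 (-0.34 to -0.28) and Pfkm (0.19 to 0.27) that happened whichever of the 4 libraries was left out, and for Pdk3 without either Th2 library (-0.40 and -0.38) or Th0 replicate 1 (-0.25). Median and quantile scaling moved the higher share of all calls from 31.5% to 48.7% and 49%. The medians of the 33 genes were -0.08 in Th1 and -0.13 in Th2, with -0.05 and -0.07 for all genes.

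The Th17_b and iTreg media, which both hold TGF-β, were also compared directly. In Th17_b against iTreg 25 of the 33 genes were higher and 2 lower, against 37.6% and 21.7% of all genes tested (59.3% called in all), with a median of 0.73 against 0.11. Hif1a was higher by 2.64 ± 0.08 (adjusted p = 4.6e-08), Bnip3 by 2.34 ± 0.26, Hk2 by 2.27 ± 0.20 (adjusted p = 1.7e-05), Tpi1 by 2.13 ± 0.23 and Pfkl by 2.06 ± 0.19. Aldoc was lower by a log2 change of -1.38 ± 0.22 and Vegfa by one of -0.90 ± 0.20, the latter lost in the fit without the table term. Of the 27 calls, 23 held in every alternative; that of Slc2a3 was lost without iTreg replicate 1 (0.57) or without either Th17_b library (0.71 and 0.68). Median and quantile scaling moved the higher share of all calls from 63.4% to 47.9% and 51.3%.

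IL27_plus_TGF_beta and Th17_b, which share TGF-β at 2 ng/ml, differed in 21.2% of the 33 genes, below the share of all genes. Only the calls of Pfkp, Ldhb and Mxi1 held in every alternative. In IL27_plus_TGF_beta against Th17_b 3 of the 33 were higher and 4 lower, against 16.7% and 21.9% of all genes tested (38.6% called in all). In the fit of these 2 media alone, 17 of the 33 and 56.1% of all genes were called, and under median scaling 5 of the 33 were higher and 3 lower. Pfkp was higher by 0.77 ± 0.12 (adjusted p = 0.00096), Ldhb by 0.68 ± 0.11 (adjusted p = 0.00077) and Slc16a1 by 0.63 ± 0.15 (adjusted p = 0.0077, lost without IL27_plus_TGF_beta replicate 2 at 0.56). Mxi1 fell by 0.59 ± 0.10 (adjusted p = 0.0016). The lower levels of Hif1a (-0.27 ± 0.08) and Bnip3l (-0.35 ± 0.10) were called, but both calls were lost whichever of the 4 libraries was left out (-0.30 to -0.23 for Hif1a, -0.41 to -0.29 for Bnip3l). Median scaling moved the higher share of all calls from 43.2% to 56.3%.

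The Th17 media themselves differed along the pathway. In Th17_b against Th17_23 18 of the 33 genes were lower and 3 higher, against 32.2% and 23.4% of all genes tested (55.6% called in all), with a median of -0.40 against -0.06. Slc2a3 was lower by a log2 change of -1.75 ± 0.20 (adjusted p = 0.0001), Hk2 by -1.45 ± 0.20 (adjusted p = 0.00029) and Slc16a1 by -0.94 ± 0.15 (adjusted p = 0.00061). Eno1 (-0.81 ± 0.17), Slc2a1 (-0.73 ± 0.16), Gapdh (-0.72 ± 0.14), Ldhb (-0.67 ± 0.11), Pgk1 (-0.63 ± 0.13) and Hk1 (-0.45 ± 0.08) were also lower, and these 9 calls held in every alternative. Hif1a, at 0.31 ± 0.08 (adjusted p = 0.0076), Eno2 at 0.52 ± 0.07 and Pfkfb3 at 0.31 ± 0.10 were the 3 called higher in Th17_b. The Hif1a call was lost without Th17_b replicate 1 (0.28) or Th17_23 replicate 2 (0.26), and that of Eno2 in the fit without the table term. That of Pfkfb3 was lost with its most abundant transcript alone, at 0.11, and without Th17_23 replicate 2 (0.18) or either Th17_b library (0.27 and 0.35). With any library of these media left out, fewer of the 33 genes were called, and fewer of all genes too. The 33 genes were then called no more often than all genes, though most of their calls were still lower ones.

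Other genes of sugar metabolism and of the HIF pathway were read beside the share of all genes tested that was called against Th0, which was 63.5% in iTreg, 54.5% in Th17_b, 49.3% in Th17_23 and 50.9% in IL27_plus_TGF_beta. Of 13 tested genes for other isozymes and side branches of glycolysis, 3 were called higher and 2 lower in iTreg, 4 and 2 in Th17_b, 6 and 3 in Th17_23, and 2 and 3 in IL27_plus_TGF_beta, each against Th0. These were 38.5, 46.2, 69.2 and 38.5% of the list in the same order of media, beyond the share of all genes in Th17_23 alone. Their median changes were 0.09, -0.02, 0.18 and 0.00068, beside -0.13, -0.03, 0.03 and -0.04 for all genes in the same order of media. Eno3, the muscle enolase, was highest in iTreg, where Eno1 was lowest. It read 75.2 and 73.5 FPKM in iTreg, 48.4 and 45.5 in Th0, 24.9 and 22.1 in Th1, 14.4 and 16.1 in Th2, 7.98 and 9.54 in IL27_plus_TGF_beta, 7.05 and 8.16 in Th17_23, and 4.48 and 4.65 in Th17_b. No library of a medium overlapped with Th0, and the change in Th17_b against Th0 was -3.11 ± 0.10 (adjusted p = 3.6e-08). Pck2, the mitochondrial phosphoenolpyruvate carboxykinase, fell by 3.14 ± 0.11 in IL27_plus_TGF_beta (3.29 and 4.11 FPKM against 38.5 and 42.1 in Th0) and by 2.89 ± 0.11 in Th17_b. Slc2a6, a glucose transporter family member, rose by 2.03 ± 0.15 in Th2, to 17.2 and 16.4 FPKM.

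Of 12 genes of the pentose phosphate and hexosamine branches, 1 rose and 8 fell in iTreg, 0 and 6 in Th17_b, 4 and 2 in Th17_23, and 3 and 5 in IL27_plus_TGF_beta, with medians of -0.49, -0.24, 0.01 and -0.13. The called shares were 75, 50, 50 and 66.7%, so that those of Th17_b and Th17_23 were near the share of all genes. G6pdx, which opens the pentose phosphate pathway, rose by 0.54 ± 0.10 in Th17_23 and by 0.50 ± 0.10 in IL27_plus_TGF_beta and fell by 0.67 ± 0.10 in iTreg. Tkt, transketolase, fell by 0.95 ± 0.11 in Th17_b. Of 27 genes of pyruvate oxidation and the citrate cycle, 3 rose and 22 fell in iTreg, 1 and 17 in Th17_b, 6 and 3 in Th17_23, and 2 and 14 in IL27_plus_TGF_beta, with medians of -0.45, -0.29, 0.02 and -0.26. The called shares were 92.6, 66.7, 33.3 and 59.3%, and the genes called lower in iTreg, 22 of 27, stand beside 40.7% of all genes. Fh1, fumarate hydratase, read 27.1 and 34.0 FPKM in iTreg and 28.1 and 30.9 in Th17_b against 74.7 and 70.8 in Th0. Pdha1, a subunit of pyruvate dehydrogenase, rose by 0.42 ± 0.07 in iTreg and fell by 0.47 ± 0.07 in Th17_23.

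Of 15 other HIF pathway components, 0 rose and 6 fell in iTreg, 1 and 3 in Th17_b, 6 and 2 in Th17_23, and 2 and 4 in IL27_plus_TGF_beta, with medians of -0.14, -0.03, 0.24 and -0.11. The called shares, 40, 26.7, 53.3 and 40%, were below that of all genes except in Th17_23, where they were near it. Epas1, which encodes HIF-2α, was at 23.6 and 38.5 FPKM in Th2 and at most at 1.18 FPKM in the other libraries. Hsp90aa1, a chaperone that stabilises HIF-1α, fell by 1.41 ± 0.14 in iTreg and rose by 0.96 ± 0.14 in Th17_23. Cited2, which competes with HIF-1α for a coactivator, rose by 1.73 ± 0.21 in Th17_23. Of 26 other HIF target genes, 5 rose and 14 fell in iTreg, 12 and 3 in Th17_b, 13 and 2 in Th17_23, and 8 and 6 in IL27_plus_TGF_beta, with medians of -0.55, 0.27, 0.53 and 0.10. The called shares were 73.1, 57.7, 57.7 and 53.8%, and 13 of 26 called higher in Th17_23 stand beside 26.4% of all genes. Ak4, a mitochondrial adenylate kinase, read 0.091 and 0.615 FPKM in iTreg, 4.94 and 5.99 in Th0, and 18.0 and 16.9 in Th17_23. Plod2, a lysyl hydroxylase of collagen, rose in iTreg, by 2.32 ± 0.15, as in Th17_b, by 2.31 ± 0.15. Among 11 genes of glucose sensing, 3 rose and 4 fell in iTreg, 3 and 5 in Th17_b, 4 and 2 in Th17_23, and 3 and 3 in IL27_plus_TGF_beta, with medians of -0.14, -0.23, 0.13 and 0.09. The called shares were 63.6, 72.7, 54.5 and 54.5%, near that of all genes except in Th17_b. Txnip, an inhibitor of glucose uptake, read 108 and 99.7 FPKM in iTreg against 66.4 and 38.9 in Th0 and rose by 1.01 ± 0.19, while it fell by 1.03 ± 0.19 in IL27_plus_TGF_beta. In Th1 and Th2 at most 2 genes of each of these 6 lists rose and at most 6 fell. The called shares of the lists were 0 to 15.4% in Th1, beside 13.9% of all genes, and 7.41 to 27.3% in Th2, beside 18%. In Th2, 1 of 26 other HIF target genes rose and 6 fell, beside 5.69% and 12.4% of all genes.

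**Figure D5:**
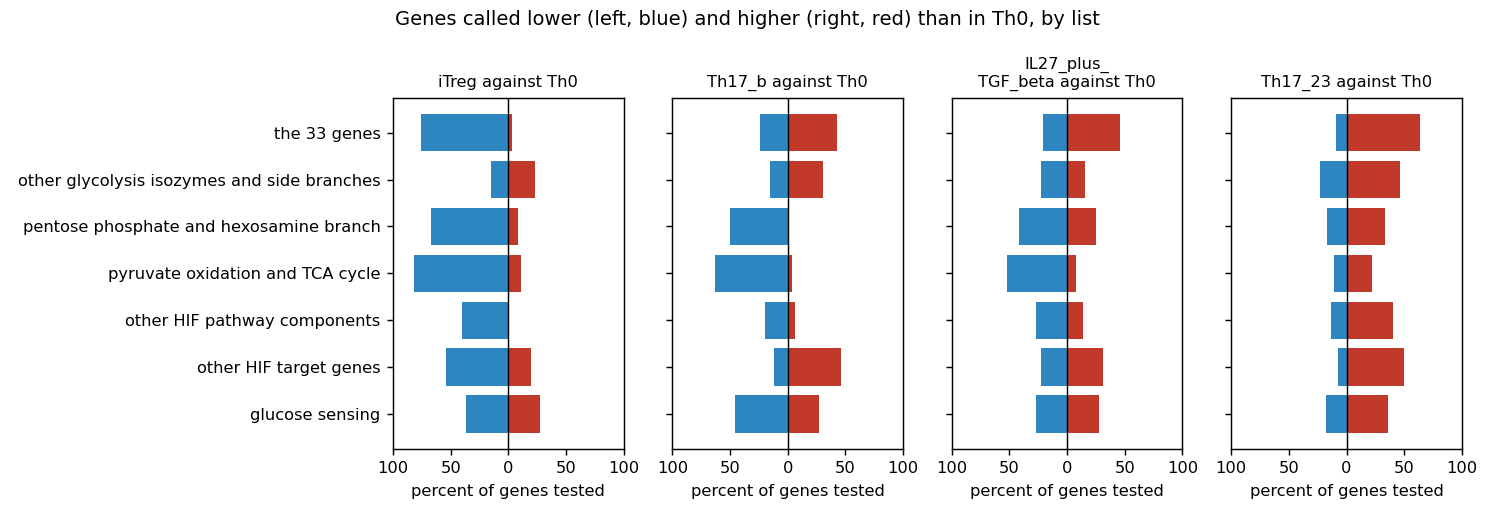
Bars give the percent of tested genes called higher (red, right) or lower (blue, left) than in Th0 in 4 media, for the 33 genes and 6 other lists. The citrate cycle list is mostly blue in iTreg, with 22 of 27 lower, and in Th17_b, with 17 of 27 lower, and the list of other HIF targets is mostly red in Th17_23, with 13 of 26 higher. Of all genes tested 40.7% were lower in iTreg, 29.1% lower in Th17_b and 26.4% higher in Th17_23.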

How the data were processed

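RNA sequencing of 14 libraries was used, 2 for each of 7 media. Per the labels' protocols, a TruSeq kit turned total RNA into libraries. The submitters' processing notes list the mouse build mm9 and the tools Cufflinks 1.3.0 and TopHat2 2.0.3, without their roles. The authors deposited FPKM values in 2 tables, with replicate 1 of every medium in one and replicate 2 in the other. How FPKM were scaled, strand and the treatment of shared reads are not given in the sources used here.

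Each table held 30028 transcripts, of which 96.7% took their gene name from the RefSeq accession (GRCm38.p6, used for names and promoters alone), 241 by symbol, and 739 stood for themselves. FPKM were summed per gene, which gave 23768 genes, and those whose mean reached 1 FPKM in some medium were tested. Relative depth came from low values that fell on whole-read steps, which 66.5 to 74.7% of compared genes did; no counting interval is given. Values were log2(FPKM + 1). Tests used limma 3.58.1 (R 4.3.3) with trend, fitted to the 14 libraries together with media and table as terms, 6 residual and 3.34 prior degrees of freedom, and two-sided p-values adjusted by the Benjamini-Hochberg method over 11556 genes. A gene was called under 0.05. The procedure was also run on simulated data with independent noise and far fewer changed genes than were called here. That run therefore does not measure the error of these calls. All comparisons against Th0 share its libraries.

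Values in every library are given for the 10 genes with the widest range of medium means, and for Slc2a1, Hk2, Ldha and Hif1a. In each comparison the text takes from up to 8 called genes with the smallest p, and from other lists up to 3 by the F test and 2 per comparison; other members are named by their role, and some list genes were chosen after their values were seen. The 33 genes, the lists, tests and alternatives were chosen with earlier results of these data known.

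Alternatives were quantile normalization, median scaling, the low-value filter at 5 FPKM or left off, a pseudocount of 0.1, no table term, each gene's highest transcript, fits of the compared media alone, leaving out each library, and, added after seeing the data, Eno1 without Eno1b.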

Additional observations from a re-analysis of the deposited data

How the results depend on the processing

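Of 261 changes examined, 190 kept their direction and side of the threshold in every alternative; of 3368 alternative values, 238 missed the threshold in the same direction and 2 reversed. The reversals were those of Pfkfb3 with its highest transcript alone, at -0.088 in Th17_b against Th0 and -0.013 in Th17_b against iTreg. Because the tables were deposited apart, the replicate number is the table and stands as a replicate block in the reported fit. Deviations of same-numbered libraries correlated at -0.13 to 0.36 (median 0.14, 21 pairs of media), and the numbers are not known to pair the cultures. The block, on which the reported p-values rest, and the changes given by table still compare libraries of the same number. With no replicate block, the count for Th2 against Th0 went from 5 to 2, and the 9 other counts stayed within 1.5 times. In fits of the compared media alone, IL27_plus_TGF_beta against Th17_b went from 7 to 17, Th1 against Th0 from 4 to 2 and Th2 against Th0 from 5 to 3. Leaving out 1 library gave 2 to 4 for Th1, 2 to 3 for Th2, 22 to 27 for iTreg (26), 17 for Th17_b (22), 21 to 24 for Th17_23 (24) and 15 to 18 for IL27_plus_TGF_beta (22), each against Th0. It gave 25 to 28 for Th17_b against iTreg (27), 4 to 5 for IL27_plus_TGF_beta against Th17_b (7), 12 to 14 for Th17_b against Th17_23 (21) and 31 to 33 in the F test (32). The Th2 count was 2 without Th0 replicate 1 and 3 when any other library of the pair was left out, the Th1 count 2 without Th1 replicate 1, and the IL27_plus_TGF_beta against Th17_b count 4 without IL27_plus_TGF_beta replicate 2. The share of all genes called also fell in every comparison, both without the block and with any library left out. For Th2 against Th0 it was 18% with the block and 13% without. In fits of the compared media alone it went from 13.9% to 4.62% in Th1 and from 18% to 13.2% in Th2. For IL27_plus_TGF_beta against Th17_b it went from 38.6% to 56.1%. These shifts were thus not particular to the 33 genes, and their cause was not tested. With 2 libraries per medium and unknown read totals, small changes were not resolved.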
